A study of Mus musculus with 8 samples.

Results

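Mitosis and spindle genes are the genes that a dividing cell uses to enter mitosis, build the spindle, separate its chromosomes and divide. A list of 40 such mouse genes was followed through 8 one-colour Agilent arrays of ovarian RNA. Each gene was read from the non-control probes whose transcript accession belongs to it. All 40 genes were found, among 20145 genes named on the array, through 53 of 26582 named probes. A total of 39 were well above background on at least 3 of the 8 arrays and were tested. Aurkb, a kinase of the chromosomal passenger complex, was not well above background on any array and has no test.

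The study set 5 arrays of ovarian neoplasia against 3 of healthy ovary. The neoplasias came from cycling mice with cre at Pgr and a progesterone receptor allele behind LsL, written Pgrcre/+mPgrLsL/+ in the sample labels and Pgrcre/+PgrBLsL/+ in the design. The healthy ovaries came from cycling Wildtype mice. All mice were 33 weeks old. An LsL cassette blocks an allele until Cre removes it, so the allele can act only in cells that have expressed Cre and in their descendants. Mice with the cre allele alone were not analysed here, so the effects of the alleles cannot be told apart from each other. The labels give no stage of the cycle and do not say whether the arrays hold different animals. The p-values therefore cover the spread among these arrays, which may be technical in part.

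Cells switch on most of these genes late in the cell cycle. In resting cells the DREAM complex holds them off through a promoter element called CHR, and in dividing cells MYBL2 and FOXM1 switch them on. After mitosis the anaphase-promoting complex marks many of the proteins for destruction. In the ovary, granulosa cells of growing follicles are the main dividing cells, and tumour cells, endothelial cells and blood precursors also divide.

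The targeted gene was read first. One probe of Pgr, the progesterone receptor, had log2 levels of 3.99, 3.25, 4.88, 4.28 and 3.12 in neoplasia 1 to 5, against -4.25, -4.19 and -7.22 in the wildtype ovaries. Here and below, a log2 level is the log2 processed signal minus the 75th percentile of the same array. The difference was 9.13 ± 0.73 (SE, limma adjusted p = 0.000134). A second Pgr probe was not well above background on any neoplasia array and on all 3 wildtype arrays. It was at least 2.88-fold lower in the neoplasias, counted against the lowest signal well above background on each array (adjusted p = 0.00338). The part of the transcript that each probe covers is not stated in the files used here. On the first probe every neoplasia was above every wildtype ovary. The 75th percentile of the signal ran from 309 to 429 in the neoplasias and from 462 to 515 in the wildtype ovaries, and 29320 to 32907 probes were well above background in the neoplasias, against 33723 to 34138 in the wildtype ovaries. The spike-in controls averaged 8.89 on the log2 scale in neoplasia 1, against 10.04 to 10.76 on the other 7 arrays. Neoplasia 1 to 4 lay in slide row 1, and neoplasia 5 lay in row 2 with all 3 wildtype arrays.

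Few of the mitotic genes passed the test between neoplasia and wildtype ovary. Of the 39 tested, 1 rose (Gtse1), 1 fell (Kif2c) and 37 did not pass the test (limma, two-sided, Benjamini-Hochberg adjusted p under 0.05 over 25206 features). Over all features tested, 16.8% rose and 13.5% fell, so the members' 2.56% in each direction was below the background share. The median difference of the members was 0.24 on the log2 scale, beside 0.13 for all features, with 27 members above 0 and 12 below. Its sign depended on the scaling: it was 0.26 with normexp, 0.11 with quantile normalization, -0.35 on the spike-ins and -0.23 in the authors' deposited values, where the medians of all features were 0.21, 0.03, -0.46 and -0.34. The share of all calls that were higher was 55.5%, against 66.3% with normexp, 15.5% on the spike-ins and 19.9% in the deposited values. Slide row 1 holds no wildtype array. Here and below, a fit with slide row as a block therefore sets neoplasia 5 alone against the wildtype arrays. No member passed in that fit and the median was -0.74. Row 2 alone, with neoplasia 5 as its only neoplasia, gave the same median. A difference of 2-fold or more was measured for 7.69% of members and for 31.4% of all features. The groups did not overlap for 1 member in each direction, where 23.0% of all features lay wholly higher and 16.1% wholly lower in the neoplasias.

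The missing calls do not show equal levels. The median standard error was 0.46 for the members, against 0.30 for all features, and no member had a 95% interval that stayed within 2-fold in both directions. The upper end of the interval stayed below a 2-fold rise for 11 members, and the lower end stayed above a 2-fold fall for 24. The neoplasias varied among themselves: the median SD of a member over the 5 neoplasias was 0.85 (range 0.37 to 1.28), against 0.30 over the 3 wildtype ovaries. The neoplasia SD was the larger one for 39 of 39 members, as it was for 84.8% of all features, whose medians were 0.47 and 0.20. In bulk RNA, fewer dividing cells and less RNA per cell cannot be told apart.

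**Figure D1:**
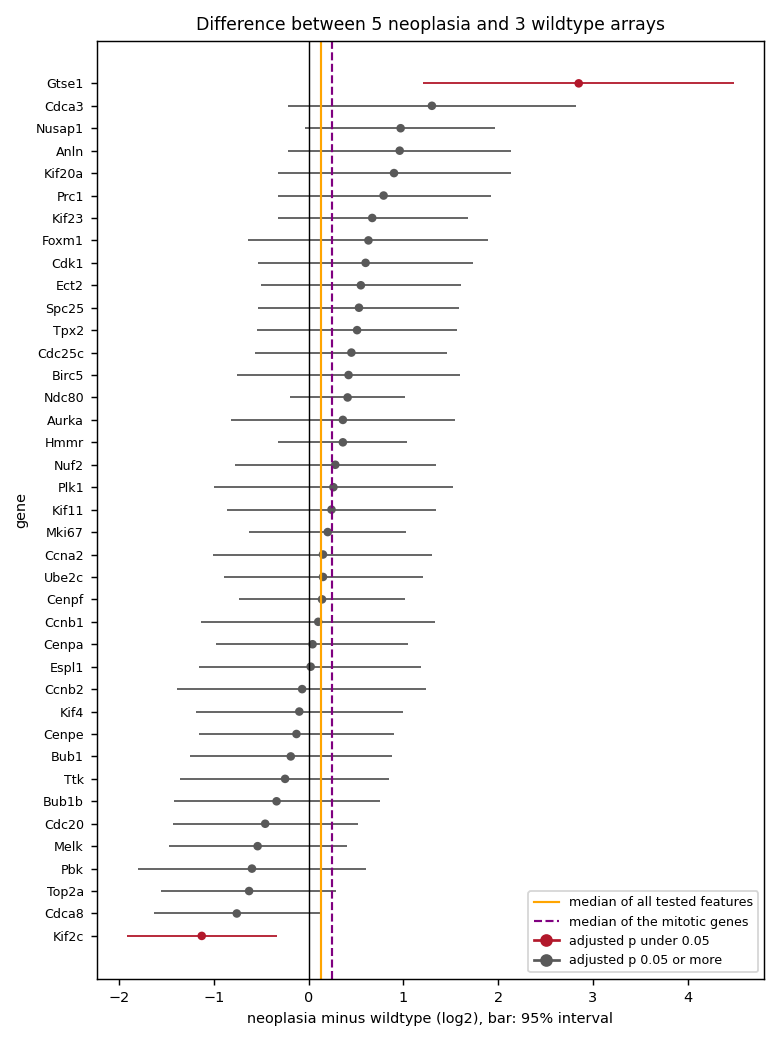
Log2 difference of neoplasia (5 arrays) minus wildtype ovary (3 arrays) for the 39 tested genes, with the 95% interval of each as a bar and the medians of all features (0.13) and of the mitotic genes (0.24) as vertical lines. Only Gtse1 (2.85) and Kif2c (-1.13), in red, passed the test, and every other bar crosses 0.

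Most members shared their highest and their lowest neoplasias. Relative to the wildtype mean, the median member stood at 1.36 in neoplasia 1 (2.56-fold), at -0.06 in neoplasia 2, at -0.15 in neoplasia 3, at 0.86 in neoplasia 4 (1.81-fold) and at -0.74 in neoplasia 5 (0.60-fold). The wildtype ovaries stood at -0.31, 0.02 and 0.29. Neoplasia 1 and neoplasia 4 thus lay above all wildtype ovaries by this median, neoplasia 2 and 3 lay among them, and neoplasia 5 lay below them. The median of all features stayed between 0.04 and 0.17 in the 5 neoplasias. These are single arrays, so the order is a description with no test.

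Counted gene by gene, 35 of 39 members were above every wildtype ovary in neoplasia 1 and 31 in neoplasia 4, against 10, 8 and 1 in neoplasia 2, 3 and 5. The shares of all features were 48.2% and 48.1% in neoplasia 1 and 4, and 45.3%, 47.5% and 40.7% in neoplasia 2, 3 and 5. Below every wildtype ovary were 1 member each in neoplasia 1 and 4, 13 in neoplasia 2, 18 in neoplasia 3 and 32 in neoplasia 5. As shares these were 2.56%, 33.3%, 46.2%, 2.56% and 82.1% of the members in neoplasia 1 to 5, beside 36.6%, 34.8%, 35%, 36.2% and 38.1% of all features, so the share in neoplasia 2 was near that of all features. Neoplasia 1 was the highest of the 5 for 34 members and neoplasia 5 the lowest for 35. Neoplasia 1 was the highest for 26.0% of all features and neoplasia 5 the lowest for 32.7%. Neoplasia 1 and 4 together were the 2 highest for 37 of 39 members (94.9%), as for 18.9% of all features. The exceptions were Cenpf and Kif23, where neoplasia 2 came second.

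Single neoplasias stood several fold apart. The median member was 2.03 higher in neoplasia 1 than in neoplasia 5 (4.10-fold), and 39 of 39 members were higher there. The median gap of neoplasia 4 over neoplasia 5 was 1.65, again with 39 of 39 higher. Neoplasia 1 exceeded neoplasia 4 by a median of 0.44, in 34 of 39 members, and neoplasia 2 exceeded neoplasia 3 by 0.12. The wildtype ovaries also had an order, on a smaller scale: the third was the highest for 35 of 38 members measured on all 3 arrays and the first the lowest for 35, with a median gap of 0.60. Among all features the third was the highest for 53.9% and the first the lowest for 33.5%, with a median gap of 0.12.

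The arrays at the high and low ends differed in other measures too. Neoplasia 1 and 4 had the lowest 75th percentiles, 309 and 337, against 359 to 429 in the other 3 neoplasias, and this percentile is subtracted from every value. Without any scaling between arrays, as in the authors' deposited values, the member medians of neoplasia 1 to 5 relative to the wildtype mean were 0.63, -0.24, -0.59, 0.32 and -1.20, so neoplasia 1 and 4 were still the highest and neoplasia 5 the lowest. Scaled on the spike-ins they were 1.86, -0.64, -1.22, 0.20 and -1.88. With normexp correction they were 1.14, -0.05, -0.04, 0.72 and -0.58, and with quantile normalization 1.12, -0.14, -0.35, 0.60 and -0.82. The signs relative to the wildtype mean were the same under all 5 scalings, but the places among the wildtype arrays were not. On the spike-ins neoplasia 4 was below the highest wildtype median (0.23), and neoplasia 2 and 3 were below the lowest (-0.33). Neoplasia 3 was also below the lowest in the deposited values (-0.27) and with quantile normalization (-0.3). On the spike-ins the medians of all features were 0.68, -0.47, -0.92, -0.49 and -1.11 in neoplasia 1 to 5. In the deposited values they were -0.52, -0.1, -0.3, -0.39 and -0.43. The high and the middle neoplasias share slide row 1. Neoplasia 5 is alone among the neoplasias in row 2, so its low values and its row cannot be told apart. The count of members called was 2 on all arrays, 2 without neoplasia 1, 2 without neoplasia 5 (Gtse1 and Kif23, both higher), 1 without neoplasia 2, 3 or 4 or the third wildtype array, and 0 without the first or second wildtype array. The member median was -0.02 without neoplasia 1, 0.10 without neoplasia 4 and 0.48 without neoplasia 5.

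**Figure D2:**
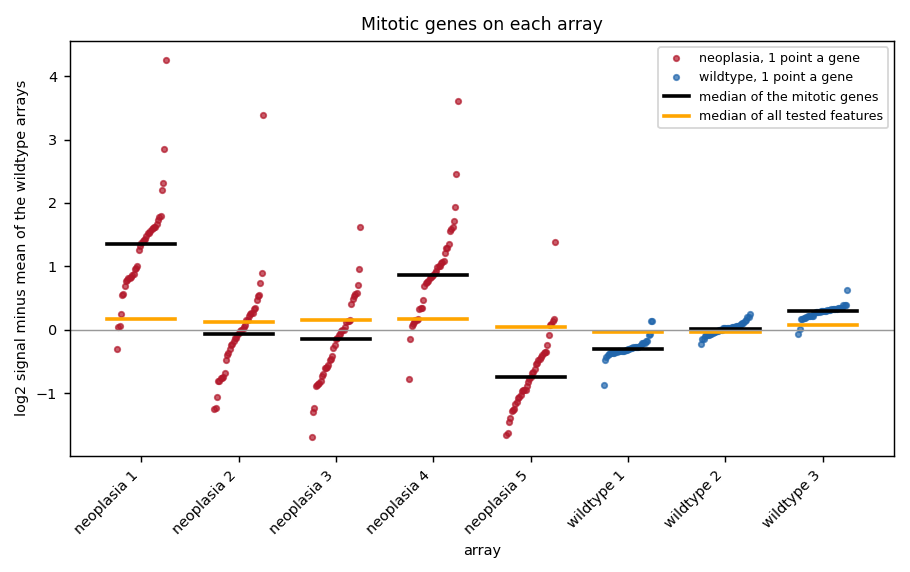
Each point is 1 of the 39 tested genes, as its log2 level minus the mean of the wildtype arrays, on the 5 neoplasia arrays (red, left) and the 3 wildtype arrays (blue, right). Black bars mark the median of the mitotic genes, 1.36, -0.06, -0.15, 0.86 and -0.74 in neoplasia 1 to 5, and orange bars the median of all tested features.

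**Figure D3:**
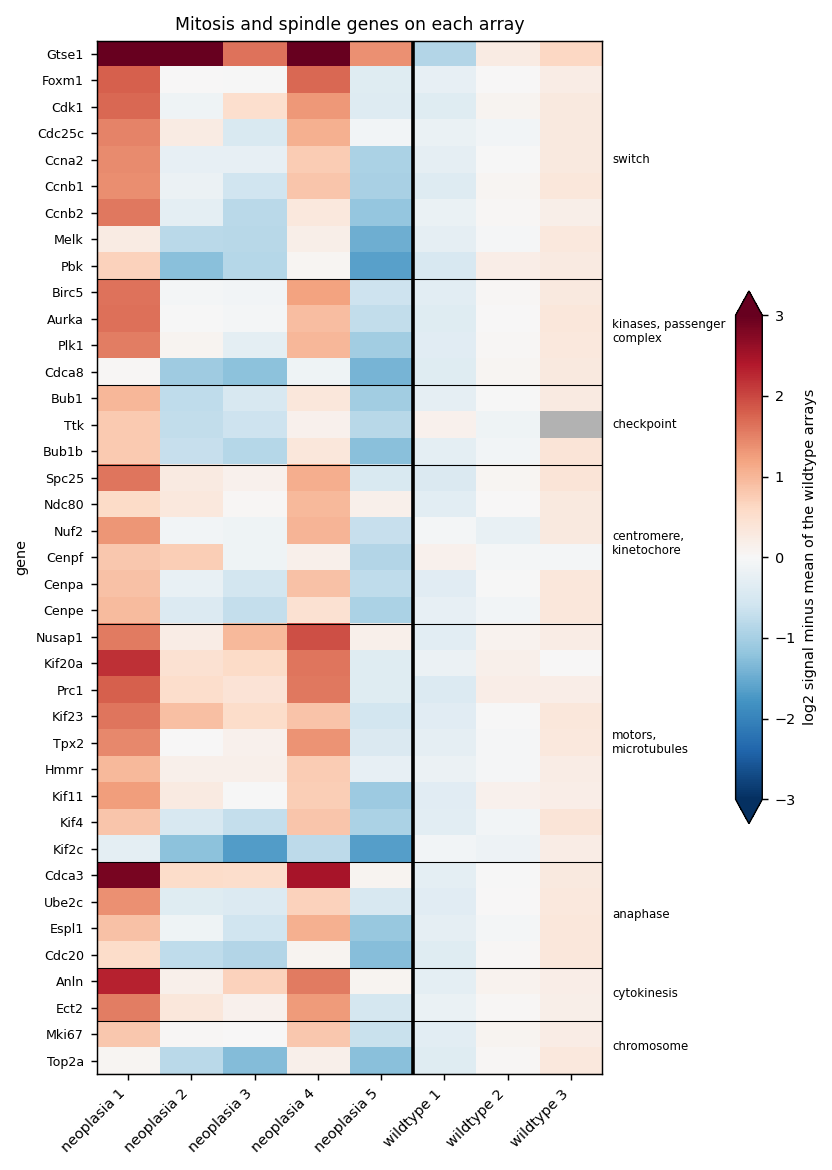
Log2 level minus the mean of the wildtype arrays for the 39 tested genes (rows, grouped by role) on each array (columns, neoplasia 1 to 5 left of the line and wildtype 1 to 3 right of it). Red is higher, blue lower and grey a missing value, and the columns of neoplasia 1 and 4 are mostly red and that of neoplasia 5 mostly blue.

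The members were also looked at for shared promoter elements. RefSeq windows of 250 bases before to 50 after a start site (GRCm38.p6) were at hand for 33 of the 40 members. The CHR element was searched as TTTGAA and the CCAAT box, a separate promoter element, as CCAAT, both on either strand. A CHR was found in 25 of 33 members (75.8%), against 20.2% of all 27025 genes with a window. A CCAAT box was found in 26 of 33 (78.8%), against 41.1%, and both in 22 of 33 (66.7%), against 7.97%. A match is a description of letters and not a bound site. Cenpf and Kif23, where neoplasia 2 came second, hold both elements. Members without a CHR, such as Gtse1, Birc5 and Bub1, had neoplasia 1 and 4 as their 2 highest neoplasias. A link between these elements and the order of the arrays was not tested. Windows are given for the 2 members that passed the test and for 3 that did not, Ccnb2, Cdca3 and Cdc20, which hold both elements. The CHR and CCAAT letters are in capitals, and each sequence runs 5′ to 3′ on the strand of its gene. The windows lie at chr15:85859457-85859756 (plus strand) for Gtse1, chr4:117178723-117179022 (minus strand) for Kif2c, chr9:70421505-70421804 (minus strand) for Ccnb2, chr6:124829926-124830225 (plus strand) for Cdca3 and chr4:118437294-118437593 (minus strand) for Cdc20.
Gtse1: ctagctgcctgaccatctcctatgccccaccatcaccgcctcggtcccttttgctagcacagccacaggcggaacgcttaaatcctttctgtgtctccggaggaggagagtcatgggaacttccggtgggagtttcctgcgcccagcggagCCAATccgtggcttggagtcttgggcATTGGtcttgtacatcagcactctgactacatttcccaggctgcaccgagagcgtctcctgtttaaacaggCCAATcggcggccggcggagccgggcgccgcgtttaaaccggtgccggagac
Kif2c: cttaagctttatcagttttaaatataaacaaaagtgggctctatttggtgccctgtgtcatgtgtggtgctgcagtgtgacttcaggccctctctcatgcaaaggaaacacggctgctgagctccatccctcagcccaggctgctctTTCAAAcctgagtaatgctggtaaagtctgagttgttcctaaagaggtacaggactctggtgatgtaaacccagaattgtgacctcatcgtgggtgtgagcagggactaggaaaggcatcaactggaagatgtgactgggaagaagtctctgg
Ccnb2: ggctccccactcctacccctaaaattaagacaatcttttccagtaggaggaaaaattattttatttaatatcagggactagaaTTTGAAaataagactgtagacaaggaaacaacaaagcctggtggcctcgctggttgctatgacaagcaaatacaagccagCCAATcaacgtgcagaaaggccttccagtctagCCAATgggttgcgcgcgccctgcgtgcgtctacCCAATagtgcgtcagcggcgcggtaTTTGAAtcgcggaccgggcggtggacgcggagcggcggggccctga
Cdca3: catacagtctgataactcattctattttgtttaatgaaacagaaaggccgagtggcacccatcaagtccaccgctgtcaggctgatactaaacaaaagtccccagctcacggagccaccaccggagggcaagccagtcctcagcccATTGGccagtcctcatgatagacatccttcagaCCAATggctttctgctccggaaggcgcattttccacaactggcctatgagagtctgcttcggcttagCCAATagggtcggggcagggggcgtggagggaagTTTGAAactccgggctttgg
Cdc20: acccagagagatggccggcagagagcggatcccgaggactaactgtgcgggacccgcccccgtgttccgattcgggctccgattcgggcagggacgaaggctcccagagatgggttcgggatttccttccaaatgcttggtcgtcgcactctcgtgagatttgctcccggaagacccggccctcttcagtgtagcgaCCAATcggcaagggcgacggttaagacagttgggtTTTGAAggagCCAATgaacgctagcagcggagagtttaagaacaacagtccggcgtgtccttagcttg
The Gtse1 window holds 3 CCAAT boxes and no CHR, and a second Gtse1 window from another start holds 1 CCAAT box and no CHR. The Kif2c window holds 1 CHR, on the opposite strand, and no CCAAT box. Ccnb2 holds 2 CHR and 3 CCAAT boxes, Cdca3 holds 1 and 3, and Cdc20 holds 1 and 2.

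The switch genes decide when a cell enters mitosis. Of these 9, 1 rose and 8 did not pass, with a median difference of 0.15. Gtse1, a microtubule-associated protein of the G2 and S phases that binds p53, had log2 levels of -1.27, -2.14, -3.91, -1.92 and -4.15 in neoplasia 1 to 5, against -6.40, -5.28 and -4.91 in the wildtype ovaries. Every neoplasia was above every wildtype ovary, with neoplasia 1, 4 and 2 highest. The difference was 2.85 ± 0.72 (adjusted p = 0.0217). The probe was well above background on 4 of 5 neoplasia arrays and on 1 of 3 wildtype arrays, so the size of the difference is uncertain. With normexp correction it was 1.16 (adjusted p = 0.0207). The call was lost without the first wildtype array (adjusted p = 0.0953) or the second (adjusted p = 0.0648). With slide row as a block, neoplasia 5 alone was set against the wildtype arrays. The Gtse1 difference was then 1.38 (adjusted p = 0.436), and it was 1.38 within row 2 alone.

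Cdk1 is the kinase that drives mitosis, and it works with cyclins A and B. Its levels were -0.30, -2.15, -1.53, -0.73 and -2.42 in neoplasia 1 to 5, against -2.39, -1.94 and -1.74 in the wildtype ovaries, a difference of 0.60 ± 0.50 (adjusted p = 0.377). Ccna2, cyclin A2, had 2.68, 1.02, 1.02, 2.03 and 0.31 in neoplasia 1 to 5, against 0.99, 1.26 and 1.55 in the wildtype ovaries, a difference of 0.15 ± 0.51 (adjusted p = 0.842). Ccnb1, cyclin B1, had 2.78, 1.21, 0.79, 2.23 and 0.42 in neoplasia 1 to 5, against 1.00, 1.44 and 1.72 in the wildtype ovaries, a difference of 0.10 ± 0.54 (adjusted p = 0.903). For all 3, neoplasia 1 and 4 lay above the wildtype ovaries and neoplasia 5 below them. Ccnb2, cyclin B2, had 3.99, 2.10, 1.59, 2.73 and 1.24 in neoplasia 1 to 5, against 2.20, 2.44 and 2.57 in the wildtype ovaries, a difference of -0.07 ± 0.57 (adjusted p = 0.932). Its neoplasia levels lay on both sides of the wildtype range, 2 above it and 3 below it.

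Cdc25c, the phosphatase that activates Cdk1, had levels of -1.30, -2.53, -3.24, -1.71 and -2.87 in neoplasia 1 to 5, against -2.99, -2.87 and -2.48 in the wildtype ovaries, a difference of 0.45 ± 0.44 (adjusted p = 0.46). Foxm1, the transcription factor that switches on many late cell cycle genes, had 1.21, -0.57, -0.58, 1.14 and -0.94 in neoplasia 1 to 5, against -0.82, -0.55 and -0.35 in the wildtype ovaries, a difference of 0.63 ± 0.55 (adjusted p = 0.405). Foxm1 was above all wildtype levels in neoplasia 1 and 4, among them in neoplasia 2 and 3, and below them in neoplasia 5. Melk, a kinase of dividing cells, differed by -0.54 ± 0.41 (adjusted p = 0.338). Pbk, a kinase active in mitosis, had 0.89, -1.04, -0.66, 0.26 and -1.43 in neoplasia 1 to 5, against -0.27, 0.41 and 0.47 in the wildtype ovaries, a difference of -0.60 ± 0.53 (adjusted p = 0.401). Only neoplasia 1 exceeded every wildtype level of Pbk, and neoplasia 2, 3 and 5 lay below all of them.

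Mitotic kinases and the chromosomal passenger complex control spindle assembly and correct faulty attachments. None of the 4 tested passed, and their median difference was 0.31. Plk1, polo-like kinase 1, had levels of 3.37, 1.92, 1.56, 2.85 and 0.81 in neoplasia 1 to 5, against 1.51, 1.87 and 2.15 in the wildtype ovaries, a difference of 0.26 ± 0.55 (adjusted p = 0.738). Aurka, the kinase of centrosomes and spindle poles, had 2.71, 1.03, 0.98, 1.98 and 0.31 in neoplasia 1 to 5, against 0.69, 1.07 and 1.38 in the wildtype ovaries, a difference of 0.36 ± 0.52 (adjusted p = 0.618). In both genes neoplasia 1 and 4 stood above all wildtype ovaries and neoplasia 5 below them. Birc5, survivin, a passenger subunit, had 4.95, 3.27, 3.25, 4.54 and 2.71 in neoplasia 1 to 5, against 3.0, 3.37 and 3.61 in the wildtype ovaries, a difference of 0.42 ± 0.52 (adjusted p = 0.557). Cdca8, borealin, another passenger subunit, had 2.27, 1.17, 1.00, 2.09 and 0.84 in neoplasia 1 to 5, against 1.87, 2.29 and 2.53 in the wildtype ovaries, a difference of -0.76 ± 0.38 (adjusted p = 0.162). No neoplasia exceeded every wildtype level of Cdca8, and neoplasia 2, 3 and 5 lay below all of them. Cdca8 was called lower in the authors' deposited values (-1.23, adjusted p = 0.0246).

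The spindle checkpoint holds anaphase until chromosomes are attached. None of its 3 members passed, and all 3 differences were negative, with a median of -0.25. Bub1, a checkpoint kinase, had levels of -0.06, -1.83, -1.55, -0.72 and -2.12 in neoplasia 1 to 5, against -1.34, -1.07 and -0.79 in the wildtype ovaries, a difference of -0.19 ± 0.46 (adjusted p = 0.778). Bub1b, which encodes BubR1, a part of the complex that blocks Cdc20, had 0.15, -1.31, -1.48, -0.29 and -1.88 in neoplasia 1 to 5, against -0.92, -0.72 and -0.24 in the wildtype ovaries, a difference of -0.34 ± 0.47 (adjusted p = 0.606). Neoplasia 1 lay above the wildtype levels of both, and neoplasia 2, 3 and 5 lay below them. Ttk, the kinase Mps1, had -3.55, -5.08, -4.95, -4.22 and -5.17 in neoplasia 1 to 5, against -4.20 and -4.48 in the first and second wildtype ovary. The third wildtype spot was left out as an outlier, and the probe was well above background on 1 neoplasia and 2 wildtype arrays, so its difference of -0.25 ± 0.47 (adjusted p = 0.701) rests on dim spots.

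Centromere and kinetochore genes encode the site where microtubules hold a chromosome. None of 6 passed, and the median difference was 0.21. Cenpa, the histone H3 variant of centromeres, had levels of 1.70, 0.61, 0.27, 1.72 and 0.06 in neoplasia 1 to 5, against 0.50, 0.81 and 1.18 in the wildtype ovaries, a difference of 0.04 ± 0.44 (adjusted p = 0.955). Ndc80, a subunit of the microtubule-binding Ndc80 complex, had -1.55, -1.79, -2.07, -1.13 and -1.97 in neoplasia 1 to 5, against -2.43, -2.09 and -1.82 in the wildtype ovaries, a difference of 0.41 ± 0.27 (adjusted p = 0.263). Ndc80 had the smallest neoplasia SD of the members, 0.37, and its highest array was neoplasia 4. Nuf2, of the same complex, differed by 0.28 ± 0.46 (adjusted p = 0.661). Spc25, its fellow subunit, had 4.24, 2.89, 2.76, 3.71 and 2.16 in neoplasia 1 to 5, against 2.19, 2.68 and 3.01 in the wildtype ovaries, a difference of 0.53 ± 0.46 (adjusted p = 0.404). Spc25 was above the wildtype range in neoplasia 1 and 4, within it in neoplasia 2 and 3 and below it in neoplasia 5. Cenpe, a kinetochore motor, differed by -0.13 ± 0.45 (adjusted p = 0.846). Cenpf, a large kinetochore protein, was well above background on 3 neoplasia and 3 wildtype arrays, had levels of -3.54, -3.62, -4.50, -4.20 and -5.24 in neoplasia 1 to 5, against -4.22, -4.43 and -4.43 in the wildtype ovaries and differed by 0.14 ± 0.39 (adjusted p = 0.8).

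Spindle motors and microtubule proteins build and move the spindle. Of 9, 1 fell and 8 did not pass, and the median difference was 0.51. Kif2c, the kinesin MCAK, which removes tubulin from microtubule ends, had levels of -1.94, -2.88, -3.33, -2.42 and -3.30 in neoplasia 1 to 5, against -1.72, -1.79 and -1.42 in the wildtype ovaries. Every neoplasia was below every wildtype ovary, with neoplasia 1 closest. The difference was -1.13 ± 0.34 (2.19-fold lower, adjusted p = 0.0399). A second, dimmer Kif2c probe differed by -1.1 ± 0.49 (adjusted p = 0.122), and there the groups overlapped. The call on the first probe was lost when any 1 array other than neoplasia 1 was left out, with adjusted p up to 0.124. It was also lost with normexp (-0.52, adjusted p = 0.0643), with quantile normalization (-0.94, adjusted p = 0.0917), with spike-in scaling (-1.72, adjusted p = 0.0658), without a filter (adjusted p = 0.0560) and with the mean over probes (adjusted p = 0.0701). With slide row as a block, neoplasia 5 alone was set against the wildtype arrays. The Kif2c difference was then -1.66 (adjusted p = 0.108), and it was -1.66 within row 2 alone, which holds 1 neoplasia.

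None of the other motors passed the test. Kif11, the kinesin Eg5, which pushes spindle poles apart, had -0.67, -1.66, -1.95, -1.19 and -3.01 in neoplasia 1 to 5, against -2.26, -1.79 and -1.74 in the wildtype ovaries, a difference of 0.24 ± 0.48 (adjusted p = 0.725). Kif20a, a kinesin of the central spindle, had 2.40, 0.67, 0.78, 1.82 and -0.15 in neoplasia 1 to 5, against 0.03, 0.36 and 0.22 in the wildtype ovaries, a difference of 0.90 ± 0.53 (adjusted p = 0.222). Kif20a exceeded the wildtype levels in all neoplasias but the fifth. Kif23, the motor subunit of centralspindlin, had 0.20, -0.50, -0.84, -0.54 and -1.94 in neoplasia 1 to 5, against -1.73, -1.42 and -1.05 in the wildtype ovaries, a difference of 0.67 ± 0.44 (adjusted p = 0.264), and it too was above every wildtype level in neoplasia 1 to 4. Kif4, a chromosome-bound kinesin, differed by -0.10 ± 0.48 (adjusted p = 0.89).

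The microtubule-bound proteins of the group had positive differences, none past the test. Nusap1, which bundles spindle microtubules, had 1.68, 0.34, 1.09, 2.06 and 0.29 in neoplasia 1 to 5, against -0.20, 0.24 and 0.34 in the wildtype ovaries, a difference of 0.97 ± 0.44 (adjusted p = 0.124). Prc1, which cross-links the central spindle, had 3.86, 2.59, 2.47, 3.65 and 1.71 in neoplasia 1 to 5, against 1.66, 2.27 and 2.26 in the wildtype ovaries, a difference of 0.79 ± 0.49 (adjusted p = 0.241). Both were higher than all wildtype ovaries in at least neoplasia 1, 3 and 4. Tpx2, the activator of Aurora A, differed by 0.51 ± 0.46 (adjusted p = 0.418), and its second probe by 0.95. Hmmr, a hyaluronan receptor that also binds spindle microtubules, differed by 0.36 ± 0.30 (adjusted p = 0.376).

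Anaphase genes free the sister chromatids, and Cdca3, named for mitotic entry, was listed with them. None of these 4 passed, and the median difference was 0.09. Cdc20, the activator of the anaphase-promoting complex, had levels of 2.80, 1.49, 1.37, 2.35 and 0.98 in neoplasia 1 to 5, against 1.89, 2.29 and 2.59 in the wildtype ovaries, a difference of -0.46 ± 0.43 (adjusted p = 0.431). Only neoplasia 1 exceeded every wildtype level of Cdc20. Ube2c, the E2 enzyme of that complex, had 2.92, 1.19, 1.14, 2.24 and 1.08 in neoplasia 1 to 5, against 1.21, 1.58 and 1.88 in the wildtype ovaries, a difference of 0.15 ± 0.46 (adjusted p = 0.818). Espl1, separase, the protease that cuts cohesin, had -0.01, -1.02, -1.49, 0.16 and -2.04 in neoplasia 1 to 5, against -1.17, -0.96 and -0.56 in the wildtype ovaries, a difference of 0.02 ± 0.51 (adjusted p = 0.982). Cdca3, an F-box-like protein known as trigger of mitotic entry, had 3.78, 1.48, 1.46, 3.39 and 1.02 in neoplasia 1 to 5, against 0.64, 0.92 and 1.22 in the wildtype ovaries. All neoplasias but the fifth lay above every wildtype level of Cdca3. The difference of 1.30 ± 0.66 (adjusted p = 0.163) was the second largest of the members, and the neoplasias spread over a range of 2.76.

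Cytokinesis genes pinch the daughter cells apart. Neither of the 2 passed, and their median difference was 0.76. Anln, anillin, the scaffold of the contractile ring, had 3.71, 1.55, 2.10, 2.95 and 1.48 in neoplasia 1 to 5, against 1.1, 1.51 and 1.59 in the wildtype ovaries, a difference of 0.96 ± 0.52 (adjusted p = 0.183). Ect2, the exchange factor that activates RhoA at the cell equator, had 1.34, 0.15, -0.07, 1.09 and -0.72 in neoplasia 1 to 5, against -0.40, -0.16 and -0.02 in the wildtype ovaries, a difference of 0.55 ± 0.46 (adjusted p = 0.378). In both, neoplasia 1 and 4 stood well above the wildtype levels.

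Of the 2 remaining members neither passed. Mki67, the proliferation antigen Ki-67, which coats mitotic chromosomes, had 3.77, 2.99, 2.95, 3.76 and 2.29 in neoplasia 1 to 5, against 2.64, 3.04 and 3.17 in the wildtype ovaries, a difference of 0.20 ± 0.36 (adjusted p = 0.693). Top2a, topoisomerase II alpha, which untangles chromosomes, had 0.61, -0.25, -0.75, 0.70 and -0.71 in neoplasia 1 to 5, against 0.19, 0.59 and 0.88 in the wildtype ovaries, a difference of -0.63 ± 0.40 (adjusted p = 0.254). Mki67 was above the wildtype levels in neoplasia 1 and 4 and below them in neoplasia 5. No neoplasia exceeded every wildtype level of Top2a.

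Probes of the same member gave differences of one sign. Of 10 members with more than 1 probe, 9 had at least 2 tested probes, and in each the differences had the same sign, with gaps of at most 0.44 (Tpx2). In all 9, each tested probe had neoplasia 1 and 4 as the 2 highest neoplasias.

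Most of the spread among the neoplasias was shared by the members. After the members' median of each array was subtracted, the median SD over the neoplasias was 0.24, against 0.85 before, and it was smaller for 38 of 39 members. Relative to that median, 10 members lay above their wildtype mean in 5 of 5 neoplasias, namely Gtse1, Cdca3, Nusap1, Anln, Kif20a, Prc1, Foxm1, Ect2, Spc25 and Tpx2. Another 11 lay below it in 5 of 5: Kif4, Cenpe, Bub1, Ttk, Bub1b, Cdc20, Melk, Pbk, Top2a, Cdca8 and Kif2c. The subtraction makes the members' median 0 by construction, so members on either side are a description of how they differ among themselves. The median subtracted comes from these same members, and no SD or count over all features is given here for comparison. With all features scaled this way, a setting chosen after the data were seen, limma called 2.65% of features higher and 4.88% lower and Gtse1 alone among the members (2.60 ± 0.53, adjusted p = 0.00966). Kif2c differed by -1.38 ± 0.45 (adjusted p = 0.0923) on this scale.

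**Figure D4:**
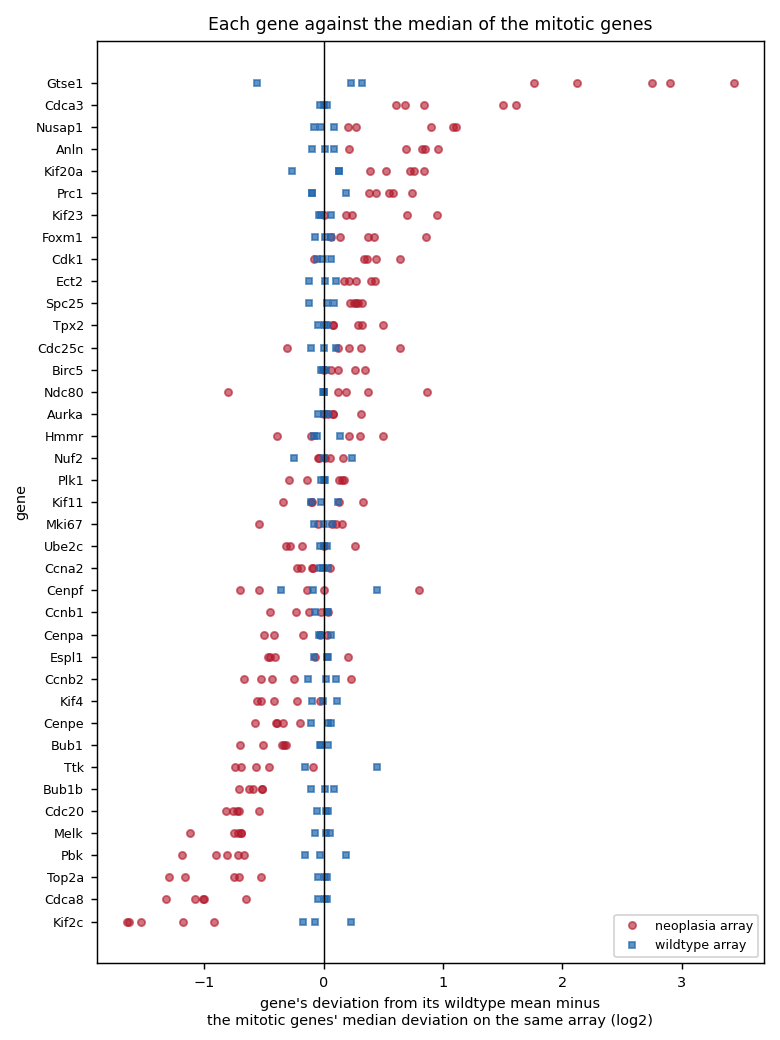
Each gene's log2 deviation from its wildtype mean minus the members' median deviation on the same array, for the 5 neoplasia arrays (red circles) and the 3 wildtype arrays (blue squares). Gtse1 lies at 1.76 to 3.44 in the neoplasias at the top, and Kif2c lies lowest at the bottom, with 10 genes wholly right of 0 and 11 wholly left in the neoplasias.

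Other genes of the pathway were read from lists. Of 65 other mitotic genes tested, 5 had an unadjusted p under 0.05 (7.69%, beside 44.5% of all features), and the median was 0.29. In limma's test 3 rose and 0 fell (4.62% and 0%, beside 16.8% and 13.5% of all features). They were Pttg1, securin, the inhibitor of separase (1.44 ± 0.24 (adjusted p = 0.00484)), Zwint, a kinetochore protein (1.28 ± 0.32 (adjusted p = 0.0209)), and Cep55, of the abscission site (0.87 ± 0.28 (adjusted p = 0.0462)). Pttg1 had 5.25, 5.55, 5.24, 5.26 and 4.68 in neoplasia 1 to 5, against 3.44, 4.03 and 3.80 in the wildtype ovaries, so it was high in all neoplasias, including the fifth. The medians of these 65 genes relative to the wildtype mean were 1.15, -0.14, -0.07, 0.88 and -0.54 in neoplasia 1 to 5, the same 2 neoplasias highest and the same one lowest as for the members. Zwint lost its call without the first or second wildtype array. Leaving out the first or second wildtype array left 1 call, and leaving out neoplasia 5 gave 6. Leaving out neoplasia 1 gave 2 higher and 1 lower. With slide row as a block (neoplasia 5 alone against the wildtype arrays) 0 passed and the median was -0.54. The median was -0.30 with spike-in scaling, with 0 calls, and -0.18 in the deposited values, with 1 higher and 2 lower. With array weights 10 rose. Of all 25206 features, 7624 rose with array weights and 5664 without neoplasia 5, against 4242 with all arrays unweighted.

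Of 18 DREAM and MMB regulators tested, 2 rose and 0 fell (11.1% and 0%, beside 16.8% and 13.5% of all features), with a median of 0.25. An unadjusted p under 0.05 was found for 3 (16.7%, beside 44.5% of all features). E2f1, an activator of S-phase genes, differed by 1.46 ± 0.32 (adjusted p = 0.0139) and Lin54, the subunit that binds the CHR element, by 0.90 ± 0.29 (adjusted p = 0.0458). Their array medians were 0.48, 0.20, 0.25, 0.73 and -0.04 in neoplasia 1 to 5. Of 15 subunits and partners of the anaphase-promoting complex, 2 rose and 1 fell (13.3% and 6.67%, again beside 16.8% and 13.5%), with a median of 0.28. Anapc16 differed by 0.80 ± 0.25 (adjusted p = 0.0422), Anapc2, the cullin-like subunit, by 0.62 ± 0.20 (adjusted p = 0.0495) and Cdc23 by -0.83 ± 0.19 (adjusted p = 0.0158). The calls of E2f1 and of Cdc23 were lost without the first or second wildtype array, that of Cdc23 also without the third. Those of Cep55, Lin54, Anapc16 and Anapc2 were lost on leaving out any 1 wildtype array, neoplasia 3 or neoplasia 4, that of Cep55, Lin54 and Anapc2 also without neoplasia 1, and that of Anapc2 without neoplasia 2. Leaving out neoplasia 5 gave 3 DREAM and MMB regulators higher, and 5 of the anaphase-promoting complex higher and 1 lower. With array weights 6 of each list rose, and 1 and 2 fell. Of all 25206 features, 5664 rose and 4318 fell without neoplasia 5, and 7624 rose and 5337 fell with array weights. With slide row as a block (neoplasia 5 alone against the wildtype arrays) 0 of either list passed. Their medians were then -0.04 and -0.16. The median of the anaphase-promoting complex was -0.05 with quantile normalization, with 0 higher and 5 lower, and the medians of the 2 lists were -0.34 and -0.31 with spike-in scaling and -0.12 and -0.19 in the deposited values.

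The S-phase genes, which copy DNA, had 7 calls. Of 29 tested, 7 rose and 0 fell in limma's test, with a median of 0.71 and 12 at an unadjusted p under 0.05. That is 24.1% called higher, beside 16.8% of all features, and 41.4% at the unadjusted threshold, beside 44.5% of all features. Rrm2, a subunit of ribonucleotide reductase, had 6.67, 3.98, 4.84, 7.24 and 6.01 in neoplasia 1 to 5, against 1.57, 1.82 and 2.17 in the wildtype ovaries, a difference of 3.89 ± 0.70 (adjusted p = 0.00606). Gmnn, geminin, the inhibitor of origin licensing, had 0.85, 0.13, 0.80, 1.77 and 0.24 in neoplasia 1 to 5, against -1.51, -1.34 and -1.06 in the wildtype ovaries, a difference of 2.06 ± 0.37 (adjusted p = 0.00622). For both genes every neoplasia was above every wildtype ovary, neoplasia 5 included. Ccne1, cyclin E1, differed by 1.91 ± 0.57 (adjusted p = 0.0366) and Cdt1, a licensing factor, by 1.24 ± 0.37 (adjusted p = 0.0367). Rrm2 and Gmnn passed in every fit that left out 1 array, with adjusted p up to 0.0333 and 0.0359. Ccne1 and Cdt1 were lost without any single wildtype array or neoplasia 4, and Cdt1 also without neoplasia 1. With 1 array left out, the count was 2 without any 1 wildtype array, 3 without neoplasia 4, 4 without neoplasia 1 or 3, 6 without neoplasia 2 and 17 without neoplasia 5. With array weights 22 rose. With slide row as a block (neoplasia 5 alone against the wildtype arrays) 0 passed and the median was 0.01. With spike-in scaling 1 rose, at a median of 0.12, and in the deposited values 2 rose and 1 fell, at a median of 0.24. The number of all 25206 features that rose also changed with the fit. It was 7624 with array weights, 5664 without neoplasia 5 and 1298 without the first wildtype array, against 4242 with all arrays unweighted.

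The S-phase genes and the mitotic genes did not have the same array medians. Relative to the wildtype mean the S-phase medians were 1.00, 0.53, 0.82, 1.37 and 0.01 in neoplasia 1 to 5. In neoplasia 2 and 3 the S-phase median was thus above 0 while the mitotic median was at -0.06 and -0.15. In neoplasia 5 the S-phase median was near the wildtype level and the mitotic median below it. This difference between the lists was not tested. The place of a median relative to 0 depends on the scaling. On the spike-ins the median of all features was -0.47 in neoplasia 2 and -0.92 in neoplasia 3, against 0.12 and 0.16 on the scale used here. The S-phase medians of single arrays are given on this scale alone.

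**Figure D5:**
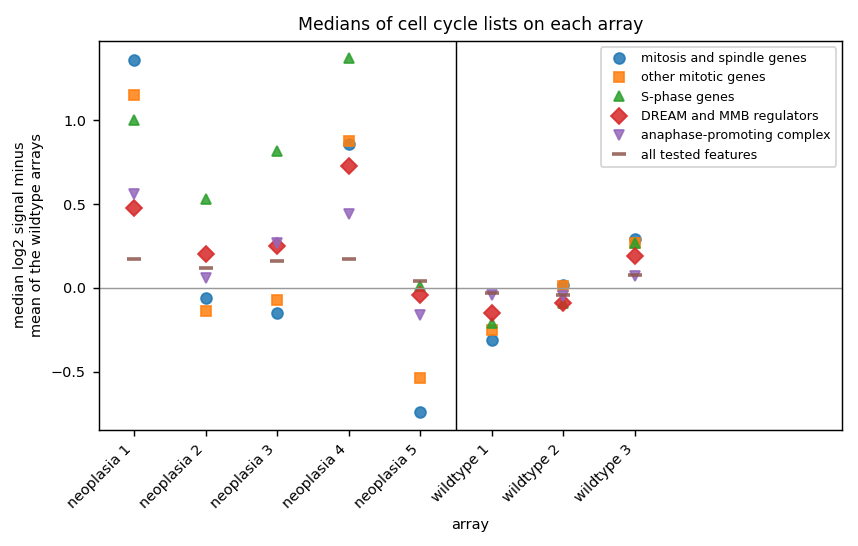
Median log2 level minus the mean of the wildtype arrays for 5 cell cycle lists and for all tested features, on neoplasia 1 to 5 (left of the line) and wildtype 1 to 3 (right of it). Members and other mitotic genes lie close together on each array, from about 1.36 and 1.15 in neoplasia 1 to -0.74 and -0.54 in neoplasia 5, while S-phase genes lie above both in neoplasia 2 to 5.

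Markers of ovarian and blood cell types differed between the groups in some lists and were mixed in others. Over all features 16.8% rose and 13.5% fell. The summed linear level of 14 oocyte markers was 1.59 to 3.93 in the neoplasias, against 35.4 to 44.9 in the wildtype ovaries, and 13 of 14 fell. Kit, which did not pass, made up 70.9% to 84.0% of that sum in the neoplasias. Not well above background on any neoplasia array were 9 of them, among them Zp1, Zp2 and Bmp15. All 8 luteal markers fell, as did 7 of 12 granulosa and 5 of 6 theca markers, and Amh, Fshr, Cyp19a1, Lhcgr and Ptgfr were not well above background on any neoplasia array. Other ovarian markers were measured in the neoplasias. Foxl2, a granulosa transcription factor, was at 5.20 to 5.65 in the neoplasias, against 4.88 to 5.13 in the wildtype ovaries, and neither it (0.43, adjusted p = 0.118), Kctd14 (0.48, adjusted p = 0.0738) nor Fst (1.06, adjusted p = 0.115) passed the test. The luteal markers Cyp11a1, Star, Scarb1, Prlr, Akr1c18 and Hsd3b1 fell but were well above background on all 5 neoplasia arrays. Their differences ran from -1.64 (Cyp11a1) to -7.9 (Hsd3b1). The summed granulosa level was 903 to 1080 in the neoplasias, against 795 to 1020 in the wildtype ovaries, and Kctd14 made up 87.0% to 93.1% of it in the neoplasias. The luteal sum was 52.2 to 147, against 429 to 783, and the theca sum 6.42 to 9.21, against 27.1 to 40.5. Of 9 macrophage markers 8 rose (summed level 90.8 to 181 in the neoplasias, against 32.6 to 38.7 in the wildtype ovaries). Of 9 erythroid progenitor markers 5 rose and 0 fell (423 to 1760, against 52.9 to 66.3), and the globins Hba-a1 and Hbb-bt made up 87.6% to 94.2% of that sum in the neoplasias. Gata1, Tfrc, Epor and Hemgn of the same list did not pass. Of 7 neutrophil markers 4 rose and 1, Ltf, fell (411 to 1500, against 1.73 to 31.5), and Lcn2 made up 93.6% to 99.5% of the sum in the neoplasias. Of 8 endothelial markers 2 rose (25%) and 0 fell, and of 8 lymphocyte markers 1 rose and 1 fell (12.5% each). On the spike-ins and in the deposited values 2 macrophage markers rose under each. On the spike-ins 0 endothelial markers rose and 1 fell.

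Within the neoplasias, the summed level of the 10 tested epithelial markers was 768, 190, 322, 525 and 179 in neoplasia 1 to 5, against 42.7, 74.7 and 13.0 in the wildtype ovaries, so its 2 highest arrays and its lowest were those of the mitotic genes. Of these markers 2 rose and 3 fell, and their median deviation was -0.42, -0.62, 0.91, 0.51 and 1.11 in neoplasia 1 to 5, and Krt18 and Krt8 made up 84.1% to 93.3% of the sum in the neoplasias. The erythroid sum, mostly globin, was 507, 423, 581, 1350 and 1760 in neoplasia 1 to 5 and was highest in neoplasia 5, where the mitotic genes were lowest. The macrophage sum was 123, 181, 91.9, 90.8 and 97.3. The granulosa sum, mostly Kctd14, was 1070, 903, 959, 1080 and 912, with neoplasia 1 and 4 also highest but neoplasia 2 lowest. The neutrophil sum, mostly Lcn2, was 1500, 537, 1290, 1090 and 411, with neoplasia 1 also highest and neoplasia 5 lowest. The endothelial sum was 76.5, 84.2, 172, 112 and 165, lowest in neoplasia 1. The part of these cell types in the order of the mitotic genes was not tested.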

How the data were processed

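Total RNA of flash-frozen ovaries was labelled with Cy3 and hybridised to 1-colour Agilent arrays, 5 of ovarian neoplasia and 3 of wildtype ovary, on 1 slide in 1 scan session per the file headers. Spot intensity in the deposited files is linear. Agilent Feature Extraction 11.0.1.1 subtracted the background and applied no scaling between arrays, per the file headers. A deposited table of the series has log2 values. Its 37932 rows equal log2 of the mean processed intensity over the spots of an accession within 0.001, so it is neither centred nor scaled between arrays. Partek is named in the submitters' processing notes, with no role given.

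Each value is log2 of the processed intensity less the 75th percentile of that array. Control and outlier-flagged spots were left out and repeat spots averaged. A probe had to be well above background on 3 or more of 8 arrays, and the probe with the highest mean stood for a gene. Accessions without versions named 26582 of 55681 probes (47.7%) through RefSeq of GRCm38.p6. The number of arrays limits the precision.

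The test was limma 3.58.1 under R 4.3.3, with lmFit and eBayes, 6 residual degrees of freedom and no covariate. It was two-sided, with Benjamini-Hochberg adjustment over 25206 features at 0.05. Errors after ± are standard errors and intervals 95%. The fit was tested on simulated data. The members and all gene lists were chosen with earlier results of these data known, and no list was tested as a set. All members are accounted for, and of each other cell cycle list up to 4 called genes in each direction are named, with both Pgr probes. The arrays are numbered by sample title; another label field calls each sample replicate 1. Alternatives were normexp (offset 50, on the median foreground, as no mean foreground is in the files used here), quantile and spike-in scaling, 2 filters, the deposited log2 values, the mean over probes, trend and robust eBayes, array weights, replicate and slide row blocks, row 2 alone, a threshold of 0.01 and leaving out each array. Scaling on the members' median was added after the data were seen.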

Additional observations from a re-analysis of the deposited data

How the results depend on the processing

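The count of features called was 7650, of which 55.5% were higher in the neoplasias. It was 4748 with spike-in scaling, 12961 with array weights, 4691 with the replicate block, 1541 with slide row as a block, 1900 with scaling on the members' median (chosen after seeing the data) and 2560 at a threshold of 0.01, and 2832 to 9982 when each array was left out in turn, lowest without the first wildtype array and highest without neoplasia 5. The share of calls that were higher was 66.3% with normexp, 50.4% with quantile normalization, 15.5% with spike-in scaling and 19.9% in the authors' deposited values, and the median of all features was 0.21, 0.03, -0.46 and -0.34 there, against 0.13. The count of members called was 2. It was 1 with quantile normalization, without a filter, with all 8 arrays above background, with the mean over probes and with scaling on the members' median. It was 0 with spike-in scaling, with the replicate block and at 0.01, and 0 to 2 when each array was left out. In the deposited values it was 3 (Gtse1 higher, Cdca8 and Kif2c lower), where 1526 of all 25206 features were higher and 6126 lower. With array weights it was 7 of 39, 6 higher and 1 lower, where 7624 of all features were higher and 5337 lower. Slide row as a block and row 2 alone both set neoplasia 5 alone against the wildtype arrays. Row 2 alone holds no spread between neoplasias. The member median was -0.74 under either setting, against 0.24, and -0.02 to 0.48 when each array was left out. It was -0.35 with spike-in scaling and -0.23 in the deposited values, both above the median of all features under the same setting. Of 855 values of single members under the 22 alternatives, 822 kept their side of the threshold, of which 696 kept their sign and 126, none of them called, had the other sign; 23 lost and 10 gained a call, and none that was called changed sign. Sign changes came to 0 to 22 members per alternative, 18 with spike-in scaling and 15 in the deposited values. Gtse1 ranged from 1.16 to 3.22 (adjusted p 0.00408 to 0.436) and Kif2c from -1.72 to -0.52 (0.00601 to 0.124). The cause of these changes was not tested. Same-numbered samples did not pair: the correlations of their deviations were -0.05, -0.03 and 0.00, so the replicate block is given here alone.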
